A study of Danio rerio with 9 samples.

Results

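The deionized water control group of a zebrafish array series is described here as a profile of the unexposed gastrula. Its members were chosen by treatment label alone and are 3 of the 9 arrays of the series. The control embryos were wild-type fish of the Tuebingen strain, sampled whole as gastrulae some 8 h after fertilisation and kept in water with no added compound. The other groups of the series were 3 arrays each of the same strain, stage and tissue at 20 and 50 µg/L pentachlorophenol, a chlorinated biocide, and no test of exposure was made. For all 3 groups eggs were collected over 30 min at 25 °C and embryos were staged by eye, and biotin-labelled RNA was made from 8 µg of total RNA per array. The labels call the arrays biological replicates 1 to 3 without giving the number of embryos in each or their clutches, so the spread given below may be partly technical. Of 15617 probe sets on the array, the 10795 with exactly 1 gene in the platform annotation, after the manufacturer's controls were left out, were ranked by mean log2(signal + 1) over the 3 control arrays, and they measured 8793 genes.

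Gastrulation is the stage at which the cells of the blastula move inwards and along the embryo to form ectoderm, mesoderm and endoderm. In fish the blastoderm spreads over the yolk at the same time, a movement called epiboly. The dorsal organiser secretes inhibitors of bone morphogenetic proteins (BMPs), which are active on the ventral side, while Nodal signals at the margin specify mesoderm and endoderm. An outer epithelium, the enveloping layer, and a layer of yolk nuclei, the yolk syncytial layer, surround the moving cells. Messages laid down by the mother have by then been largely cleared or are being cleared, and the embryo's own genome is active. An extract of whole embryos averages all of these cells, and fewer cells of a type and less RNA per cell cannot be told apart in it.

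The 3 control arrays were on a common scale, with a mean of 500.1 after trimming 2% at each end, but they differed in background. As a bound on background, the tag level was taken on each array as the 95th percentile of the 17 tag control probe sets, which are meant to match no zebrafish transcript. It was 113.8 on replicate 3, against 50.6 on replicate 1 and 54.5 on replicate 2. Spearman correlations over 15502 probe sets, which are not independent replicates, were 0.878 between replicates 3 and 1 and 0.872 between replicates 3 and 2, against 0.922 between replicates 1 and 2. Replicate 3 therefore stood apart from its mates in tag level and in correlation. Many values that rest on it are given beside those of the other control arrays. List medians of replicate 3 are set beside those of other arrays only in part. Its deposited values carried more decimals than those of replicates 1 and 2, as did the arrays numbered 3 in both exposed groups.

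Signal declined steeply at the top of the ranking and slowly below it. The brightest probe set had a mean of 16.27 on the log2 scale (COX1), the probe set at rank 100 a mean of 14.10 (marcksl1b), that at rank 1000 a mean of 11.10 (ndufa5) and that at rank 5000 a mean of 7.69 (agpat4). The 100 brightest ranked probe sets held 26.6% of the summed signal on replicate 3, against 23.7% on replicate 1 and 22.9% on replicate 2. In all, 6103 of the 10795 probe sets (56.5%) were above the tag level on all 3 arrays, and with 1 probe set per gene 5371 of 8793 genes (61.1%) were. A further 1546 genes (17.6%) were above it on no array. By array, 8153 probe sets (75.5%) were above the tag level on replicate 1, 7820 (72.4%) on replicate 2 and 6406 (59.3%) on replicate 3. The count of 6103 probe sets was 7324 without replicate 3, but 6173 without replicate 1 and 6239 without replicate 2, so replicate 3 limited it the most. The spread between arrays was small for bright probe sets, with a median SD of 0.33 log2 units in the brightest of 10 equal parts of the ranking, and reached 1.19 in part 9. Among the genes above the tag level on all 3 arrays the median SD was 0.40, and 152 of them (2.83%) had an SD over 1.

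**Figure D1:**
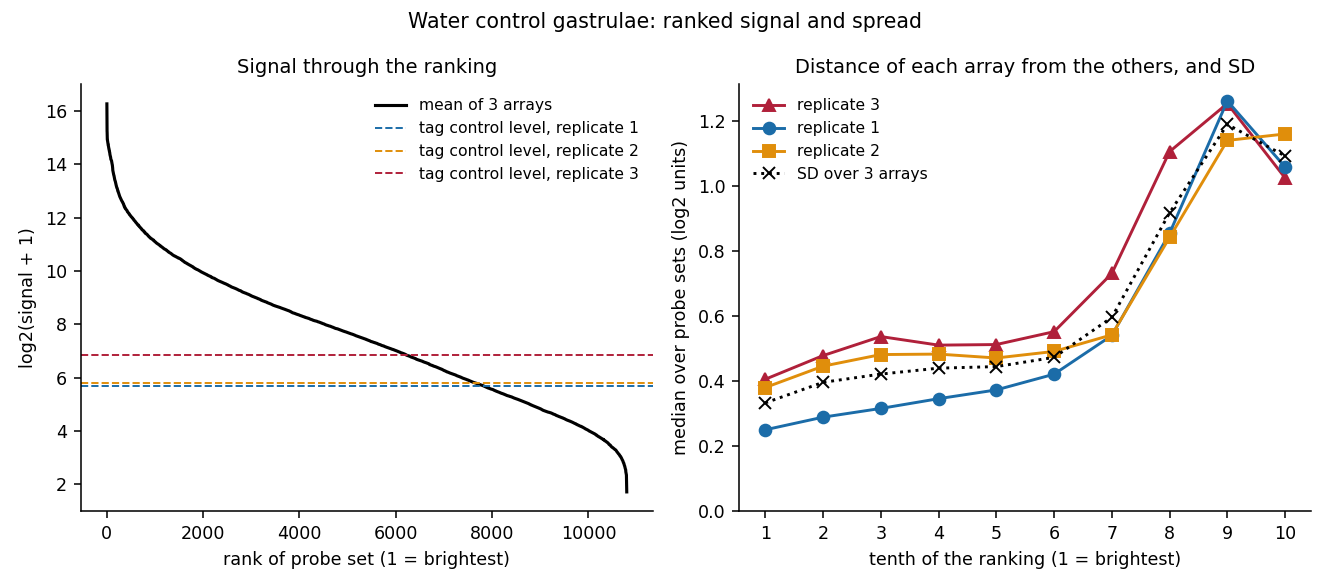
Left, mean log2(signal + 1) of the 10795 single-gene probe sets over the 3 control arrays against their rank, with the tag control level of each array dashed. Right, for each of 10 equal parts of that ranking (brightest first), the median absolute difference of each array from the mean of the other arrays and the median SD, in log2 units: replicate 3 was the farthest from its mates in parts 1 to 8, with 0.41 in the brightest against 0.25 for replicate 1 and 0.38 for replicate 2.

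The order is one of hybridisation signal and not of transcript number, because brightness also depends on the probes. Of 1539 genes with several probe sets, 1050 (68.2%) had probe sets more than 1 log2 unit apart, and the median range was 1.63. The gene cirbpb shows it: a probe set at rank 7 had signals of 30761, 39851 and 34593 on replicates 1 to 3, and its other probe set, at rank 6855, had 147, 138 and 27.5. Below, 1 probe set stands for each gene, the one with the highest mean over the control arrays, and signals are given in the order of replicates 1, 2 and 3.

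The gene with the highest signal was COX1, the mitochondrially encoded catalytic subunit of cytochrome c oxidase. Its signals were 78237, 78922 and 80061, a mean log2 of 16.27 ± 0.02 (SD, n = 3), and it was first on each array. Its other probe sets stood at ranks 2 and 5, with mean log2 values of 15.81 and 15.24. The polyubiquitin gene ubb followed at 56519, 47981 and 57254, and eef1a1l1, which encodes the elongation factor that brings aminoacyl-tRNA to the ribosome, at 48229, 52037 and 50701. These were the only steps that stood clear of the spread: among the 30 brightest genes the gap to the next gene exceeded both genes' SDs for 2 of 30 neighbours, COX1 over ubb (0.56 log2 units) and eef1a1l1 over rps2 (0.40). For the other neighbours the gap was within the SD of at least 1 of the pair, so their exact order is not resolved by 3 arrays.

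Ribosomal protein genes made up 14 of the 30 brightest genes and 56 of the 100 brightest. The first of them, rps2, had 36613, 33584 and 45286, followed by rps4x with 34726, 27057 and 42045 and rps14 with 30538, 24915 and 40251. For all of these replicate 3 was the highest array. The large-subunit gene rpl3 was steadier, at 30085, 30833 and 32161, while rpl15 was the least steady of the 30, at 26915, 17712 and 42332 (SD 0.63). The others among the 30 were rps20, rpl8, rpl7a, rpl36, rpsa, rps23, rps3a, rpl30 and rpl18, with mean log2 values between 14.72 (rpl18) and 14.90 (rps20).

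The other 16 of the 30 brightest genes were COX1, ubb, eef1a1l1 and genes of iron storage, the cytoskeleton, RNA binding, yolk handling and chromatin. The ferritin heavy chain gene fth1a had 33212, 34218 and 37275, and its relative fthl27 had 26966, 33653 and 23710. Ferritin stores iron as a protein-bound mineral. The RNA-binding protein genes were cirbpb, a cold-inducible member, and hnrnpa0l, a heterogeneous nuclear ribonucleoprotein, with 31162, 32293 and 26807. Structural genes were krt8, a simple-epithelium keratin, with 31263, 26737 and 36506, and tuba8l4, an alpha tubulin, with 30954, 25449 and 38062. The antifreeze-type gene afp4 had 30210, 26434 and 36531, and the lysosomal protease gene ctsla (cathepsin L) 37090, 21331 and 28743. The remaining genes were tpt1, a translationally controlled protein, rack1, a scaffold on the small ribosomal subunit, ran, the GTPase of nuclear transport, hspb1, a small heat shock protein, and hmga1a, an architectural chromatin protein. Their means lay between 14.71 (hmga1a) and 14.85 (tpt1). The probe set of tpt1 shares the stem of its name with those of rpl3, and whether it measures tpt1 was not tested.

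**Figure D2:**
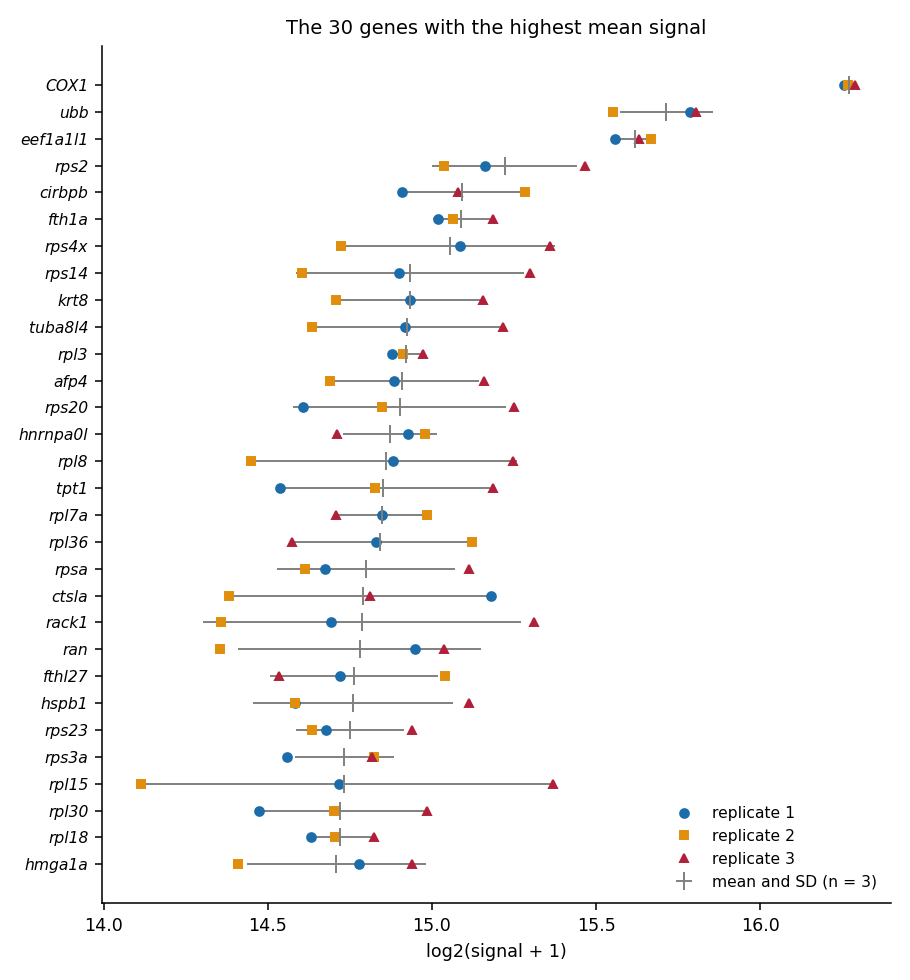
log2(signal + 1) of the 30 genes with the highest mean over the 3 control arrays, each array as a point and the mean with its SD as a bar (n = 3). COX1 stands alone at 16.27, ubb and eef1a1l1 follow, and the arrays of neighbouring genes overlap from rps2 down to hmga1a at 14.71.

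Counted by probe set and not by gene, the brightest set differed between single arrays, and 13 probe sets were among the 30 brightest on all 3 arrays. For the 100 brightest, 71 probe sets were common to all arrays. Replicate 3 shared 86 of its 100 brightest probe sets with replicate 1 and 73 with replicate 2, and replicates 1 and 2 shared 83. At the bright end replicate 2 thus shared no more with its mates than replicate 3 did.

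Each of 26 gene lists was described by how many of its measured genes were above the tag level on all 3 arrays, where 61.1% of all genes were, and by its median level, where all genes had 7.72. Some genes are in more than 1 list. All 45 large-subunit and all 28 small-subunit ribosomal protein genes were above the tag level, with medians of 14.30 and 14.40, and 33 and 23 of them were among the 100 brightest genes, a set that held 1.14% of all genes. RNA-binding and splicing genes followed, with 48 of 49 above the tag level and a median of 12.78, then histone and chromatin genes, with 35 of 37 and 12.45. The list of DNA replication and cell cycle genes had 57 of 59 and 11.14, led by pcna, the sliding clamp of DNA polymerase, with 23039, 25280.2 and 28437. The signals of ccnd1, a cyclin of the G1 phase, were 10770, 9913 and 17306. Cytosolic chaperones had 27 of 30 and 11.66, led after hspb1 by the cyclophilin gene ppiaa (mean 14.67) and the constitutive Hsp70 gene hspa8 (14.64). Proteasome and ubiquitin genes had 37 of 42 and 11.15, led by the core subunit gene psmb4 (13.05). Cytoskeletal genes had 29 of 38 and 11.04, with actb1, a beta-actin, at 18471, 18437 and 25239.8.

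Within the lists of translation and of energy metabolism, some genes were bright and others were not above the tag level on any array. Of 38 translation factor genes 33 were above it on all arrays, with a median of 11.85, and pabpc1a, a poly(A)-binding protein, had 19417, 11586 and 27198. The 4 that were above it on no array, named after their values were seen, were eef1a1a, eef1a1b, eef2l2 and pabpc4. Of 84 oxidative phosphorylation genes 79 were above it on all arrays, with a median signal of 2044, and cytochrome oxidase subunit genes led the list after COX1, with cox7c at 9772, 13826 and 18127 and cox6b2 at 12917, 15132 and 11336. Again 4 were above it on no array, cox6b1, cox4i1l, cox4i2 and ndufa4b, named after their values were seen. Glycolysis had fewer genes with a measured level: 12 of 26 were above the tag level on all arrays and the median was 6.87. The aldolase gene aldoaa had 11038, 9830.2 and 10753, gapdh had 11460.0, 7929 and 7489, and the lactate dehydrogenase gene ldhba 4914, 3607 and 1870.2. Against these, aldoca, aldocb, pklr, pgam2 and gpib were above the tag level on no array, the highest value among the 5 being 53.7 (pklr on replicate 3).

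**Figure D3:**
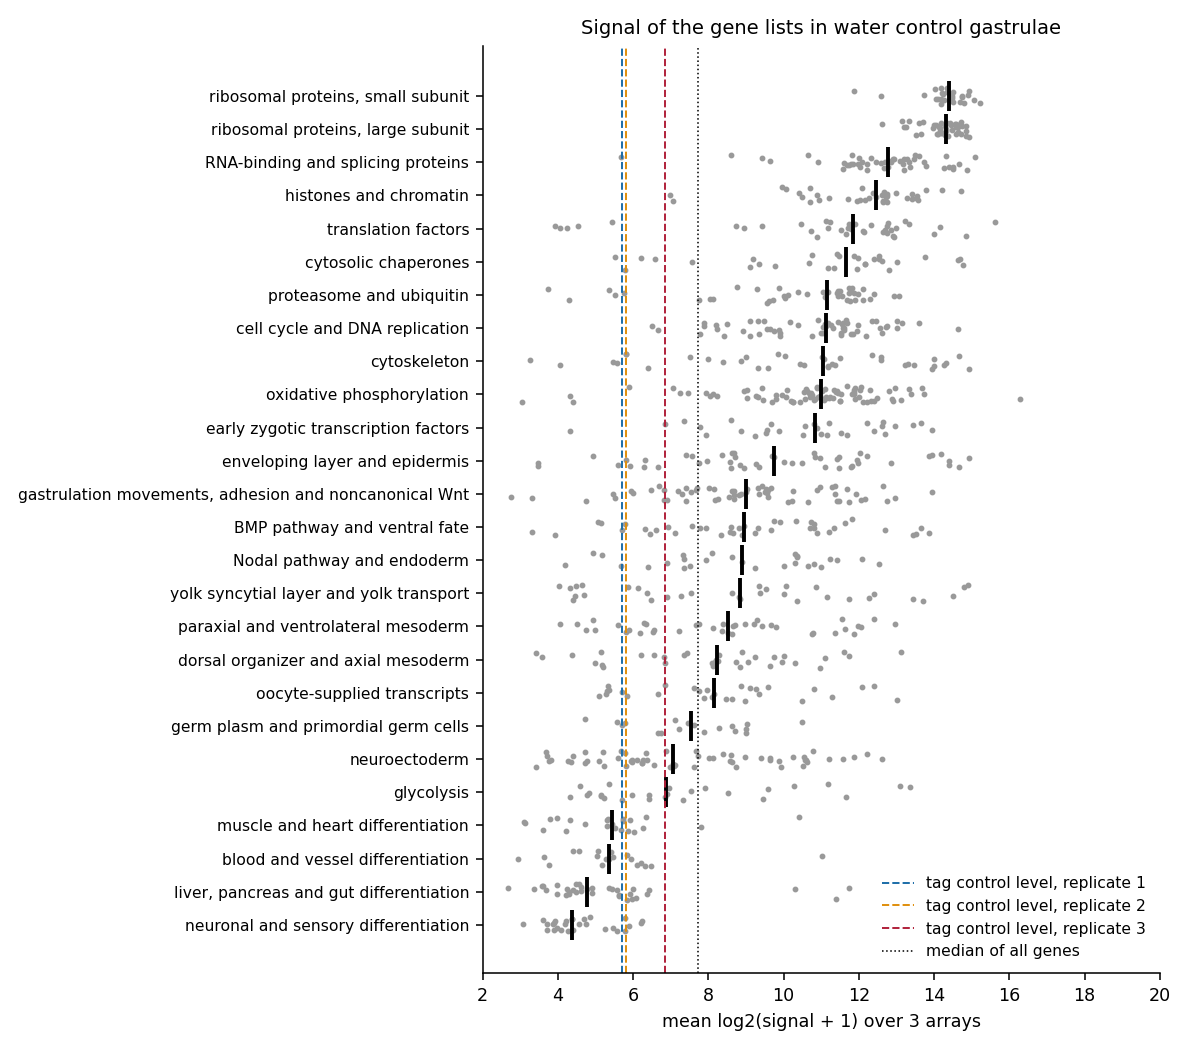
Mean log2(signal + 1) of each measured gene (grey points, spread vertically at random) in the 26 lists, ordered by list median (black bars), with the tag control level of each array dashed and the median of all genes (7.72) dotted. The ribosomal protein lists lie at 14.30 and 14.40, the patterning lists between 7.05 and 10.84, and the 4 lists of later differentiation between 4.37 and 5.43, under the tag level of every array.

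Markers were set against the stage on the label. The 11 gastrula markers, a subset of the patterning genes below, were tbxta, gsc, chrd, tbx16, sox17, sox32, sox3, otx2b, krt4, hnf4a and nanos3. All 11 were above the tag level on all 3 arrays, with summed signals of 48973, 45805 and 44125. Of these sums krt4 alone gave 23451, 20244 and 20489, and they include a bright sox3 probe set that is uncertain (below). On replicate 3 sox17 had 118, close to the tag level of 113.8 and under the highest tag control (138.5). Other gastrula genes were not above the tag level on replicate 3, with signals there of 103 for vent, 97.4 for bmp4, 103 for mixl1 and 10.1 for ndr1. Of 15 markers of later cell types 11 were on the ranking, with summed signals of 407, 507 and 550.1, and none of them was above the tag level on all arrays. Those above it on no array were the fast muscle gene mylpfa, the heart genes myl7 and tnnt2a, the synaptic gene snap25a and the insulin gene ins. The muscle creatine kinase gene ckma had 49.3, 75.9 and 134, the erythroid factor gene gata1a 77.5, 14.3 and 64.0, and the neuronal gene elavl3 89.7, 52.9 and 32.6, and 134 was the highest value of any of these markers. The globin genes hbae1.1 and hbbe1.1, rho and crygm2a had no ranked probe set, nor had zp2.1, gdf9 and vtg1 among the egg and ovary markers. The only measured egg and ovary marker, zp3b, was above the tag level on all 3 arrays, with 447, 442 and 505.

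The lists of later differentiation were dim as a whole, with exceptions that were well measured. No neuronal or sensory gene of 28, 1 blood or vessel gene of 19, 2 muscle or heart genes of 23 and 4 liver, pancreas or gut genes of 35 were above the tag level on all arrays. The blood list's exception was lcp1, an actin-bundling plastin, with 2641, 2254 and 1482. Those of the muscle list were the cardiac-type actin genes actc1a, with 1016, 753 and 3267, and actc1b, with 255, 225 and 192. In the gut and liver list they included tfa (transferrin), with 3795, 3321 and 3227, uox (urate oxidase), with 2749, 3043 and 2313, and fabp2, an intestinal-type fatty acid binding protein, with 2018, 1638 and 609.

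Genes of the egg's own store ranged widely. Of 29 oocyte-supplied genes 20 were above the tag level on all arrays, with a median of 8.14, and 3 were among the 500 brightest genes, where 5.69% of all genes stood. The first was ccnb1, the mitotic cyclin B1, with 7344, 7814 and 9856, which dividing embryonic cells also express. The egg coat gene zp3b had 447, 442 and 505, so the arrays hardly differed (SD 0.11). The antiproliferative gene btg4, which takes part in maternal mRNA clearance, had 106, 135 and 104 and was above the tag level on replicates 1 and 2 only. Germ plasm and primordial germ cell genes had 13 of 18 above it and a median of 7.53. The vasa helicase gene ddx4 had 535, 811 and 299, the translational repressor gene nanos3 had 420, 542 and 321, and the RNA-binding gene dnd1 156, 116 and 182. A second probe set of dnd1 had 133.9, 366.5 and 9.9, so the probe sets of dnd1 disagree on the direction of replicate 3. The linker histone gene h1m, maternally supplied and kept in germ cells, led that list with 1590, 2741 and 694. For ddx4, nanos3 and h1m replicate 2 was the highest array and replicate 3 the lowest.

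Many early zygotic transcription factor genes were bright. Of 30 such genes 28 were above the tag level on all arrays, with a median of 10.84 and 9 among the 500 brightest genes. The POU factor gene pou5f3, an activator of the zygotic genome, had 14413, 15078 and 18407. Its partners in that role were lower in signal: nanog had 496, 989 and 877, and sox19b 637, 378 and 410.0. The differentiation inhibitor gene id1 had 8254, 16137 and 9976, so that replicate 2 lay above both other arrays.

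Dorsal genes were measured, with a median spread near that of all genes and above that of probe sets near their median level. Of 34 organiser and axial mesoderm genes 23 (67.6%) were above the tag level on all arrays, where 61.1% of all genes were. Their median level was 8.23 and their median SD 0.54, against a median SD of 0.52 over all genes, many of them dim. Part 4 of the ranking, with means of 8.13 to 8.88, had a median SD of 0.44. The list itself also holds 5 genes above the tag level on no array. The organiser homeobox gene gsc had 1009, 1341 and 709, and the BMP antagonist gene chrd had 1813.5, 705 and 497. The notochord genes tbxta, a T-box factor, and noto, a homeobox factor, had 2009, 3422 and 1534 and 2364, 5120.2 and 2423. Replicate 2 was thus the highest array for gsc, tbxta and noto and replicate 3 the lowest for gsc, chrd and tbxta. The forkhead gene foxa3 was steadier, at 1125, 891 and 1063. The zinc finger gene sp5l, a Wnt target, led the list with 6621, 8955 and 12092, followed by admp, a BMP-like ligand made dorsally, with 2545, 3505 and 4406.

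On the ventral side, 30 of 41 genes of the BMP list were above the tag level on all arrays, with a median of 8.94. Among its repressors of dorsal fate, vox varied little, at 12903, 11880.1 and 13715 (SD 0.10), and ved had 6808, 5523 and 7921. The related gene vent had 412, 243 and 103, the last under the tag level of replicate 3. The ligand gene bmp2b had 2840.1, 2019 and 2332, and bmp4 had 214, 121 and 97.4, the last again under the tag level of replicate 3. The homeobox genes cdx4 and eve1, of ventral and posterior mesoderm, had 12579, 13488 and 9370.4 and 2831, 4854 and 2361. The order vox, ved, vent held on each array, but it is an order between probe sets and not between transcript numbers.

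In the Nodal and endoderm list 21 of 27 genes were above the tag level on all arrays, with a median of 8.88. The Nodal ligand genes were dim: ndr1 (squint) had 68.3, 59.4 and 10.1 and ndr2 (cyclops) 140, 128 and 240. Their co-receptor gene tdgf1 (one-eyed pinhead) had 3920, 4908 and 4115, and the inhibitor gene lft1 had 513, 469 and 433 (SD 0.12). The endoderm genes differed in signal, with the Sox factor gene sox32 at 7213, 8220.3 and 3454 and its target sox17 at 200.4, 257 and 118. The homeobox gene mixl1 had 175, 219 and 103. For sox32, sox17, mixl1 and ndr1 replicate 3 was the lowest array, and for ndr2 it was the highest.

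Mesoderm genes had 27 of 39 above the tag level on all arrays, with a median of 8.52. The presomitic factor gene msgn1 led them with 8167, 9381 and 6736, and the T-box gene tbx16, needed for mesodermal cells to move, had 5504, 3746 and 7823. The signals of snai1a, a Snail factor active in migrating cells, were 4411, 3921 and 4455 (SD 0.10). The muscle determination genes were lower: myf5 had 271, 303 and 426, and myod1 49.3, 58.3 and 127, the first of which was under the tag level. For tbx16, myf5 and myod1 replicate 3 was the highest array, whereas for msgn1, gsc, chrd, tbxta and sox32 it was the lowest. These named genes do not stand for their lists. Replicate 3 was above both others at 18 of 39 mesoderm genes and below both at 11. For organiser and axial genes these counts were 14 and 12 of 34, and for Nodal and endoderm genes 10 and 9 of 27. Over all genes the shares were 42.4% and 32.8%.

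Neuroectoderm genes were the least often measured of the patterning lists, with 33 of 61 above the tag level on all arrays, a median of 7.05 and a median SD of 0.72, against 0.52 over all genes. Those at the top were bright. The SoxB1 genes sox3 and sox2, of early neural and pluripotent ectoderm, had 5418, 5790 and 7806 and 1151, 950.1 and 735. The other 2 probe sets of sox3 were much dimmer, with 719, 555 and 382 and 143, 198 and 157, and the direction of replicate 3 differed between the 3, so the level of sox3 is uncertain. The bright probe set also shares the stem of its name with the probe sets of hmga1a, a gene among the 30 brightest. Whether it measures sox3 was not tested. The zinc finger gene zic2b had 6388, 5263 and 3247, and cyp26a1, whose product degrades retinoic acid, had 4623, 3718 and 3049. Regional genes were also present: the forebrain and midbrain gene otx2b had 962, 524 and 972, the anterior hindbrain gene gbx1 had 1565, 1219.6 and 1756, and the midbrain boundary gene her5 472, 578 and 213.

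Outer and yolk layer genes were among the brightest with a tissue name. The enveloping layer and epidermis list had 40 of 49 genes above the tag level on all arrays, a median of 9.74 and 5 genes among the 100 brightest. After krt8 came the keratin gene krt18a.1, with 33780, 22333 and 22758, and lye, an epidermal Ly6-type surface protein, with 21885, 28977 and 15967. The keratin genes krt4 and krt5 had 23451, 20244 and 20489 and 16503, 13617 and 14798, and their SDs were 0.12 and 0.14. The yolk syncytial layer and yolk transport list had 22 of 33 above the tag level and a median of 8.84, with 3 genes among the 100 brightest: afp4, ctsla and the apolipoprotein E gene apoeb, with 25891, 25084 and 19673. Its nuclear receptor gene hnf4a had 974, 1014 and 404. Genes of cell movement, adhesion and noncanonical Wnt signalling had 51 of 61 above the tag level and a median of 9.01, led after pou5f3, which epiboly also needs, by ctnnb1 (beta-catenin), with 10536, 5559 and 8787, and the Wnt receptor gene fzd7a, with 8707, 5292 and 7186. A pair of its genes named after their values were seen were near or under the tag level, wnt11, with 4.6, 4.8 and 8.2, and vangl2, with 81.7, 36.2 and 30.4.

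**Figure D4:**
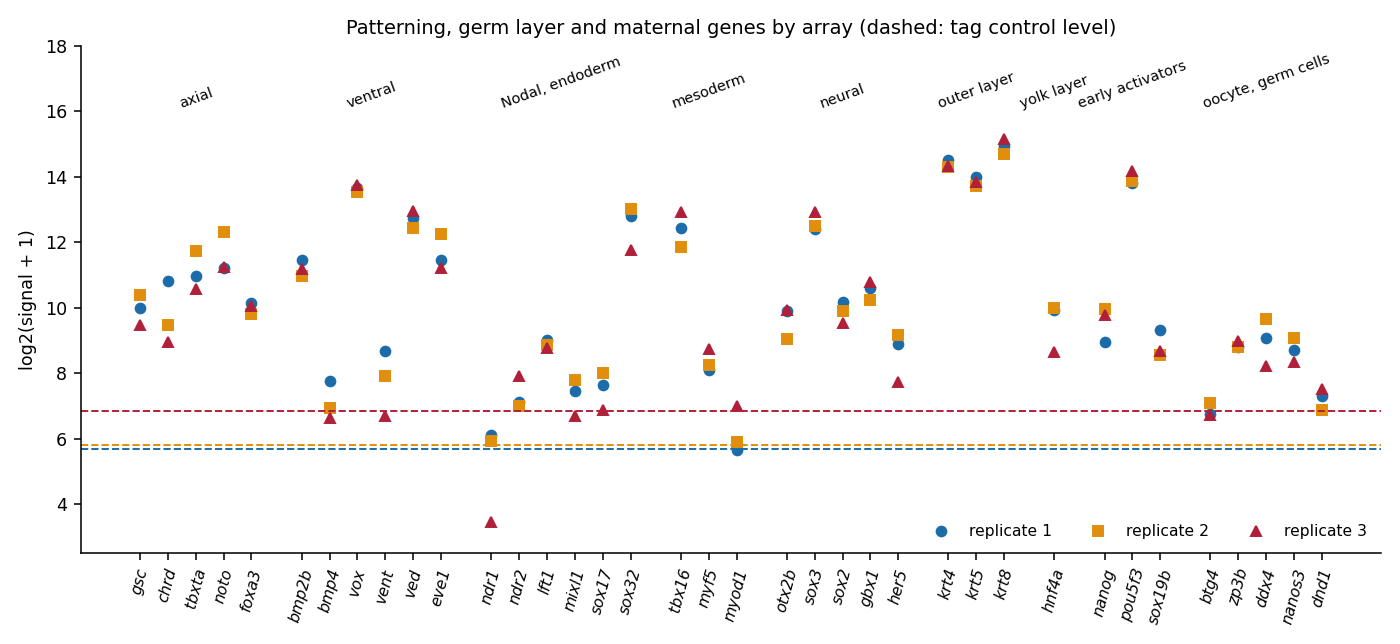
log2(signal + 1) of patterning, germ layer and maternal genes on each control array, grouped by role, with the tag control levels dashed. Keratins, pou5f3, vox and sox32 are bright, and ndr1, myod1 and btg4 lie near or under the tag level. Replicate 3 is the lowest of the 3 arrays for sox32 (3454), hnf4a (404) and chrd (497) and the highest for pou5f3 (18407) and myf5 (426).

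Replicate 3 differed by more than 2-fold (1 log2 unit) from the mean of replicates 1 and 2 at 3424 of 10795 probe sets (31.7%), of which 1863 were higher and 1561 lower. The same measure gave 2355 for replicate 1 and 2813 for replicate 2, and between 1784 and 2339 for the 6 exposed arrays, each against its own group. One array against its mates allows no test. Much of the count lay among dim probe sets: in the dimmest part of 10 replicate 3 was higher at 467 and lower at 86, and in the brightest part higher at 51 and lower at 82. With only probe sets where replicate 3 or both others were above the tag level, the count was 1897 (763 higher, 1134 lower), so that 40.2% of those past 2-fold were higher, against 54.4% over all. That filter favours lower calls by construction, since the tag level to pass was 113.8 on replicate 3 but 50.6 and 54.5 on replicates 1 and 2. No direction is therefore read from this count. With an offset of 32, which damps dim values alike on every array, 922 were higher and 992 lower. Past 2-fold, replicate 3 was more often lower than higher in each of parts 1 to 7, and more often higher in parts 8 to 10. In parts 2 to 5 it was higher at 84, 65, 70 and 96 probe sets and lower at 135, 162, 135 and 134. From 100% (part 2) to 92.9% (part 5) of those probe sets were above the tag level on all arrays. The median difference was 0.03 in the brightest part, -0.09, -0.13 and -0.03 in parts 2 to 4, and 0.02 in part 5. Replicate 3 was the highest array for 22 of the 30 and 66 of the 100 brightest genes, where it was for 42.4% of all genes. Those genes were ranked by a mean that includes replicate 3, and 56 of the 100 were ribosomal protein genes.

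Of the manufacturer's control probe sets, the tag controls set replicate 3 apart and the hybridisation controls did not. The labelling controls set replicates 1 and 3 apart, on opposite sides. Tag controls had a median signal of 34.4 on replicate 3, against 7.6 on replicate 1 and 8.4 on replicate 2, and 14 of the 17 were higher. The 24 probe sets for the bacterial poly(A) transcripts dap, lys, phe and thr, which are meant to be added before labelling, had a median of 2942 on replicate 3, against 327 on replicate 1 and 901 on replicate 2, and all 24 were highest on replicate 3. Over the 6 exposed arrays that median lay between 322 and 1846. Against the mean of the other control arrays, the median difference of the labelling controls was 2.41 log2 units on replicate 3 and -0.19 on replicate 2. On replicate 1 it was -2.17, with all 24 lower. The 18 probe sets of the hybridisation controls bioB, bioC, bioD and cre had medians of 2233 on replicate 3, 2190 on replicate 1 and 2706 on replicate 2. Against the mean of the other arrays their median difference was -0.05 log2 units on replicate 3, -0.39 on replicate 1 and 0.38 on replicate 2, where all 18 were higher. The ratio of 3' to 5' signal of these bacterial transcripts did not set replicate 3 apart in 1 direction: it was 2.45 on replicate 3 for dap, against 2.67 on replicate 1 and 2.43 on replicate 2. For lys it was 4.1 on replicate 3, against 1.91 and 4.85, for phe 2.64, against 2.07 and 4.32, and for thr 2.41, against 2.36 and 2.43. In a further probe set pair for each of dap, lys and phe it was 1.47, 0.68 and 2.02 on replicate 3, against 1.78, 1.14 and 1.15 on replicate 1 and 1.56, 1.15 and 1.88 on replicate 2. No ratio was calculated for the further pair of thr. Its 3' signals were 6176 on replicate 3, 749.8 on replicate 1 and 2066.5 on replicate 2, and its 5' signals 5568, 513 and 1493. The part of these differences in the gene values below was not tested.

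Most gene lists had medians on replicate 3 under 0.5 log2 units in size, the exceptions being 3 lists of later differentiation. All genes had a median difference of 0.14 log2 units, and 18 of the 26 lists had a median above 0. That count was made against 0 and not against 0.14, so no tendency of lists is read from it. Of the dim lists of later differentiation, muscle and heart had a median of 1.41, blood and vessel 0.91, liver, pancreas and gut 0.60 and neuronal and sensory, the dimmest, -0.06, beside 2.15 for the tag controls. After quantile normalization the liver, pancreas and gut median was 0.09 and the neuronal and sensory one -0.55. The neuronal and sensory median was 0.85 when all probe sets of each gene were averaged. Among bright lists, large-subunit ribosomal protein genes had 0.33, with 34 of 45 higher on replicate 3 than on both other arrays, where 42.4% of all genes were. Small-subunit genes had 0.41, with 20 of 28, and oxidative phosphorylation genes 0.27, with 54 of 84. The summed signal of the large-subunit genes was 1060020 on replicate 3, against 876974 on replicate 1 and 817775 on replicate 2. After quantile normalization of the 3 arrays the large- and small-subunit medians were 0.12 and 0.22. A shift of this size was not particular to control replicate 3: set against its own group, replicate 2 at 20 µg/L had medians of 0.46 and 0.42, and the arrays numbered 3 had large-subunit medians of -0.38 at 20 µg/L and -0.02 at 50 µg/L. Replicate 3 at 20 µg/L had medians of 0.91 for blood and vessel, 0.67 for liver, pancreas and gut and -0.29 for oxidative phosphorylation. Blood and vessel had -1.02 on replicate 1 at 20 µg/L. For muscle and heart no other array of the series reached 1.41, the next in size being -0.83 on replicate 1 at 50 µg/L.

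The histone and chromatin list lay on the other side by its median, but not at each of its genes. The histone and chromatin list had a median of -0.26, with 22 of 37 lower on replicate 3 than on both others, where 32.8% of all genes were, and 7 lower by over 2-fold, where 11.7% of all genes were. On replicates 1 and 2 the median of this list was 0.20 and 0.02. In the same list 11 genes were higher on replicate 3 than on both others, where 42.4% of all genes were. Of them h2ax (1.69) and dnmt1 (1.02) were higher by over 2-fold. Of its 11 high mobility group genes, a class singled out after its values were seen, 10 were lower on replicate 3 than on both others, with a median of -0.87. This class held 4 of the 7 genes lower by over 2-fold, and the list median without it was not computed. High mobility group genes encode abundant proteins that bend or loosen DNA in chromatin. With 1 probe set per gene the steepest was hmgb2a, with 1157 on replicate 3 against 17149 on replicate 1 and 13052 on replicate 2, or 12.9-fold lower. Next, hmgb2b had 1132 on replicate 3 against 7973 and 6831, and its second probe set had 328 against 3544 and 2899. For hmgb3a the brightest probe set was at -1.55 and its dimmer ones at -4.90 and -3.15, both under the tag level on replicate 3 (70.5 and 21.7). The exception was hmga1a (0.35), yet its 3 dimmer probe sets were at -0.62, -1.71 and -1.16, so its probe sets disagree. The proteasome and ubiquitin list was also low, with a median of -0.29 and 23 of 42 genes below both other arrays, but against replicate 1 alone (without replicate 2) its median was -0.15. Replicate 3 at 20 µg/L, against its own group, had a median of -0.29 for this list too.

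**Figure D5:**
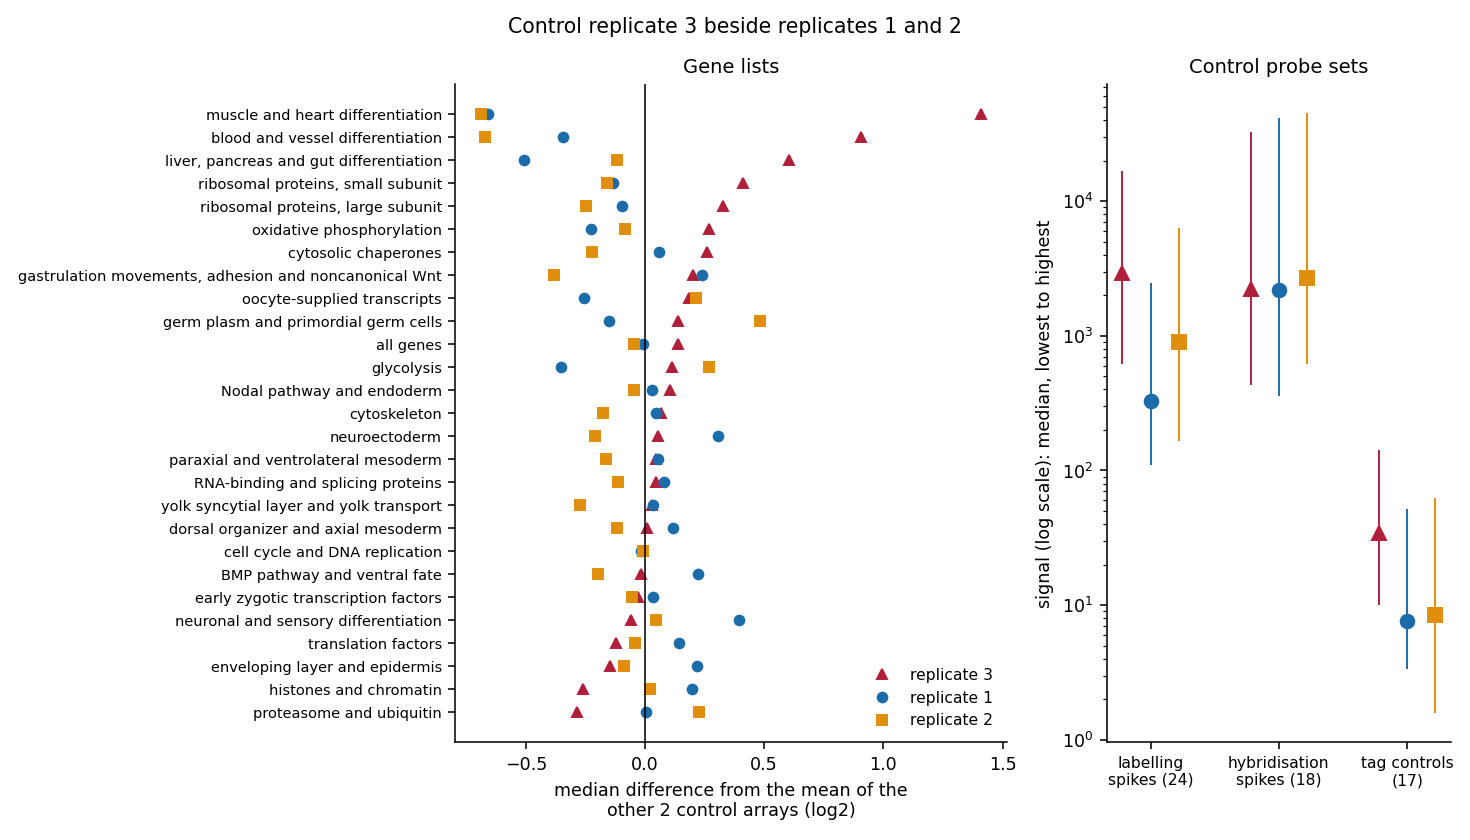
Left, for each gene list, the median log2 difference of each control array from the mean of the other 2. Right, signal of the manufacturer's control probe sets on a log scale, as the median with the lowest to highest value. Labelling spikes (2942 on replicate 3) and tag controls (34.4) have their highest median on that array and hybridisation spikes (2233) do not.

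Named by a rule that asked replicates 1 and 2 to lie within 0.5 log2 units of each other (4455 genes), and replicate 3 or both others to be above the tag level (3918 of those), the 10 genes furthest above on replicate 3 were mostly dim on the other arrays. Of the 3918 genes, replicate 3 was higher by over 1 at 284 and lower at 427, and of all 8793 genes 17.5% were higher and 11.7% lower by as much. The rule admits lower genes more readily, because the tag level was higher on replicate 3 than on its mates. The excess of lower genes is therefore partly built in and gives no direction. One of the 10, the chromatin repressor subunit gene mta3, was above the tag level on all arrays, with 1380.1 on replicate 3 against 166 on replicate 1 and 177 on replicate 2, or 8.06-fold higher. The forkhead gene foxo3b had 302 on replicate 3 against 43.0 and 50.8, both under the tag level, and was at least 5.74-fold higher. For ppip5k1a, six6a, hbegfa, sypa, setmar, patj, gpr19 and psmb9a the others were under the tag level too, and the signals on replicate 3, from 114.8 (sypa) to 179 (ppip5k1a), were close to its own tag level of 113.8, so no fold is given.

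The 10 furthest below were hmgb2a and 9 genes that were under the tag level on replicate 3. Of these, arfgap2, a GTPase-activating protein of vesicle coats, had 24.6 on replicate 3 against 332 on replicate 1 and 357 on replicate 2, or at least 3.03-fold lower. The gene ppp1r14ab had 7.9 on replicate 3 against 152 and 204, at least 1.55-fold lower, and st6galnac1.2, arhgap12b, cpap and igf2bp1 were at least 1.18-fold (arhgap12b) to 1.70-fold (cpap) lower. For wnt4b, ripk2 and c1galt1la the values of replicates 1 and 2 were under the tag level of replicate 3, so no fold is given.

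The genes with the largest spread among those above the tag level on all arrays were those in which replicate 3 was the outlying array. They were si:dkey-87o1.2, with 249.7 on replicate 3 against 2821 and 5131, hmgb2a, npm2b, a nucleoplasmin of the egg, with 262 against 2535 and 2224, hsd3b2, a steroid dehydrogenase gene, with 373 against 3688 and 2288, and mta3. Their SDs ran from 1.73 (mta3) to 2.31 (si:dkey-87o1.2). The smallest were plpbp, with 131, 131 and 131, pdia5, a disulfide isomerase, with 151, 152 and 149, cdca7b, with 1475, 1490.0 and 1461, tyw1, with 710, 726 and 720.2, and COX1. No test of constancy was made.

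Whether a difference of an array was shared by probe sets of the same gene was measured at 596 genes with a pair of probe sets above the tag level on all arrays. For replicate 3 the brighter probe set differed by over 2-fold at 110 genes, and the other probe set went the same way at 81 of them and past 2-fold at 33. Pearson's r across these genes, which are not independent replicates, was 0.39 for replicate 3, 0.16 for replicate 1 and 0.53 for replicate 2. Probe sets of a gene share its label and its hybridisation, and some share probes.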

How the data were processed

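Total RNA of 9 samples of whole embryos was hybridised to 1 Affymetrix array each. The deposited intensity values are linear, 1 per probe set and array; per the submitters' processing notes GCOS and MAS5 were used; their versions are not given in the sources used here. Each array had been scaled to a trimmed mean of about 500.1. The table held 0 columns of other samples. Values were taken as log2(signal + 1), and averaged with no further normalization (Python 3.11.15, pandas 2.3.3, numpy 2.4.6). The calculations were tested on simulated data. Detection calls were not used here; the 95th percentile of 17 tag controls served as a bound on background. Precision is limited by the 3 arrays.

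Of 15617 probe sets, 115 were manufacturer's controls, 10795 others had 1 gene, 135 several and 4572 none. Symbols were checked through gene identifiers (10711 matched, 1 updated). The brightest probe set stood for its gene. No promoter or protein sequence was used here, and no test was made: each array was set against the mean of its mates, with 2-fold as the limit, and lists are described by counts and medians.

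The 3 control arrays were members by their treatment label, but this group and the 26 lists were chosen with earlier results of these data known. Genes were named by rule: the 30 brightest, the 3 brightest of a list, a fixed set of patterning and marker genes, for replicate 3 the 10 furthest above and below, with replicates 1 and 2 within 0.5 and replicate 3 or both others above background, and the 5 largest and smallest SDs. Alternatives changed the offset, normalization, background, probe set choice and arrays.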

Additional observations from a re-analysis of the deposited data

Results flagged for a closer look

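Probe sets without a single gene in the annotation were not ranked, yet 1626 of 4707 (34.5%) were above the tag level on all 3 control arrays, and 11 were among the 100 brightest of all probe sets. They were singled out because they carry signal that the ranking leaves out. The brightest of them, which matches several genes, had 44355, 47354 and 37846 on replicates 1 to 3 and stood at rank 5 of all probe sets.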

How the results depend on the processing

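The ranking was steady: 95 to 100 of the 100 brightest probe sets were shared with it under the offset of 32, quantile normalization, a common median and the median over arrays, and 93 to 96 without 1 array. The count of probe sets above background was 6103, 5729 with the highest tag control and 7530 with at least 2 of 3 arrays. It was 6173 without replicate 1, 6239 without replicate 2 and 7324 without replicate 3. The count of probe sets past 2-fold on replicate 3 moved from 3424 to 1914 with the offset of 32 and to 1897 with probe sets above background only, both of which damp or drop dim values. With dim values raised to the tag level of their array it was 3747 (81.5% higher), which says nothing of direction, since replicate 3's tag level was over 2-fold that of its mates and each of the 2049 probe sets dim on every array counts as higher by construction. It was 3461 after quantile normalization (45.4% higher) and 3445 with a common median, and 3466 to 4102 against a single mate. Lists with a median above 0 on replicate 3 numbered 16 to 21 under all alternatives run, and 16 to 17 without 1 array. These counts are against 0 and not against the median of all genes. Of the list medians, 46 of 207 levels and 20 of 181 replicate 3 differences moved by more than the spread between replicates. With genes above background on all arrays only, the median difference was reversed for the blood and vessel list (-0.72, resting on lcp1 alone) and for the liver, pancreas and gut list (-0.23). The planned search of promoters for motifs was not run, since no promoter sequence was used here. No paired analysis was possible because no groups were compared. For genes under the tag level 3 arrays with unequal background give a bound and not a level.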
